A study of Mus musculus with 146 samples.

Results

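Among germ cells of the newborn mouse ovary, oocytes with Zp3, the sperm-binding glycoprotein of the egg coat, were set against germ cells with next to no Zp3 but a high level of Figla, the transcription factor that is known to activate the zona pellucida genes. Cells were picked one by one with a mouth pipette from P0.5 ovaries of C57/BL6J mice, and 146 Smart-seq2 libraries with ERCC spike-in RNA were made from them. The labels name pups of the same litter and no animal for any cell, and neither a genotype nor a treatment differed between cells. Every level below is in TPM, which gives the share of a cell's sequenced transcripts that a gene makes up, scaled to a fixed total after division of its reads by transcript length.

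The labels give every library as a cell of its own, but 7 pairs of libraries were nearly the same. The correlation of log2(TPM + 1) within these pairs was 0.984 to 0.993, and in no other pair of libraries did it exceed 0.824 (median 0.623). Their reads differed by a mean chi-square of 1.91 to 5.18 per gene, which is more than counting error alone gives, against at least 181 in the 100 next most alike pairs. Each pair was therefore taken as repeat libraries of 1 cell, averaged and counted once, which leaves 7 cells fewer than libraries. Of the pairs, 6 lay in the Zp3-negative group, and the other had 0.865 and 1.37 TPM of Zp3 in its 2 libraries and fell between the groups as a mean.

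The cells were chosen by their measured levels of 3 genes. The germ cell helicase Ddx4 had to reach 1 TPM, which left out 1 cell. Of the rest, 39 cells with at least 50 TPM of Zp3 were called Zp3-high (28.1% of all cells, exact 95% interval 20.8 to 36.3%), and 67 cells with less than 1 TPM of Zp3 and at least 500 TPM of Figla were called Zp3-negative (48.2%, 39.7 to 56.8%). Between these limits of Zp3 lay 13 cells, and 19 more had neither Zp3 nor 500 TPM of Figla. The intervals cover counting error only, and the shares describe the cells that were picked. Both groups together hold 76.3% of the cells. With every library counted as a cell, the groups would hold 39 and 74.

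Zp3, Figla and Ddx4 chose the cells, so their values are only a description. Zp3 ran from 52.01 to 1454 TPM in Zp3-high cells, with a median of 378. The 2 cells just inside the limit had 52.01 and 57.9 TPM, and the 2 just outside had 43.99 and 36.5. In 44 of the 67 Zp3-negative cells Zp3 was listed at 0. Figla ran from 708 to 3867 TPM in Zp3-negative cells, while the highest Zp3-free cell that missed the Figla limit had 459. No Figla limit was set for Zp3-high cells, where it ran from 256 to 4453 TPM and 4 cells were below 500. Differences in any other gene between 2 groups cut this way are also a description of these cells.

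An oocyte in a primordial follicle is arrested at the diplotene stage of meiotic prophase. While germ cell cysts break up and single oocytes are enclosed by pregranulosa cells, the oocyte leaves the program of chromosome pairing and recombination and starts to build the stores that the egg will use. These include the zona glycoproteins, the subcortical maternal complex (a protein assembly under the egg membrane that early embryos need), RNA-binding proteins that hold messenger RNA untranslated, and oocyte-type histones. FIGLA acts with the E proteins encoded by Tcf3, Tcf4 and Tcf12 on E-box sequences (CANNTG) of the zona genes, and NOBOX, LHX8, SOHLH1 and SOHLH2 are the other transcription factors known to be needed for early follicles.

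The names of both groups were checked against marker genes. Dazl and Sycp3, which mark germ cells, were each at 10 TPM or more in all cells of both groups. The other listed germ cell markers besides Ddx4, which chose the cells, were Mael, Dppa3 and Kit, and none reached 10 TPM in every cell. By the log2 ratio of means, Mael was lower in Zp3-high cells (-1.82), Dppa3 higher (1.78) and Kit within 2-fold (0.27). The zona-stage markers Padi6 and Ldhb were both at 10 TPM or more in 36 of 39 Zp3-high cells and in 6 of 67 Zp3-negative cells. The follicle factors Nobox, Lhx8 and Sohlh1 all reached 10 TPM in 61 of the 67 Zp3-negative cells and in 38 of the 39 Zp3-high cells, so being on for these factors does not set the groups apart. Foxl2, the defining pregranulosa gene, was listed at 0 in every Zp3-high cell and reached 1 TPM in 2 Zp3-negative cells, but the authors had dropped libraries with Foxl2 in a qPCR screen, so this gene is no check. The 13 pregranulosa markers together had a median of 1.12 TPM (0 to 18.7) in Zp3-high and 0.694 TPM (0 to 82.1) in Zp3-negative cells. The 10 stroma markers together had medians of 0.541 and 1.13 TPM and ranged to 81.5 and 879. Of 8 leukocyte and endothelial genes, Tyrobp and Cldn5 were listed at 0 in all cells of both groups and Lyz2 stayed below 1 TPM. The leukocyte gene Ptprc reached 1 TPM in 6 Zp3-high and 5 Zp3-negative cells, Cd68 in 4 and 2, Cdh5 in 1 and 3, Tek in 0 and 4 and Kdr in 0 and 1. Together the 8 had medians of 0.306 (0 to 68.6) and 0.0631 TPM (0 to 76.8). The 14 blood and endothelial markers, globins included, together had medians of 34.04 (0 to 43770.3) and 68.3 TPM (0 to 39446).

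Reads that Salmon assigned to genes numbered 5182273 to 15702322 per Zp3-high cell and 6020166 to 33117438 per Zp3-negative cell, with medians of 10638728 and 9294897. Zp3-high cells also held more RNA relative to the spike-ins. The ratio of gene TPM to spike-in TPM had a median of 133.1 (27.4 to 416) against 81.1 (29.3 to 204). After each cell was thinned to 1000000 reads, a median of 8889 coding genes had a read in Zp3-high and 7430.0 in Zp3-negative cells, and without thinning 10582 and 8898. Mitochondrial genes took 8.12% and 5.94% of the reads (medians), and 15 Zp3-high and 9 Zp3-negative cells were over 10%. Globin RNA reached 1000 TPM in 8 Zp3-high and 9 Zp3-negative cells. On each of these measures the groups overlapped widely. The part of RNA amount, mitochondrial reads and globin in single differences was not tested. Values within a common range of RNA amount and without the globin-rich cells are given below for some of the genes whose call changes there.

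**Figure D1:**
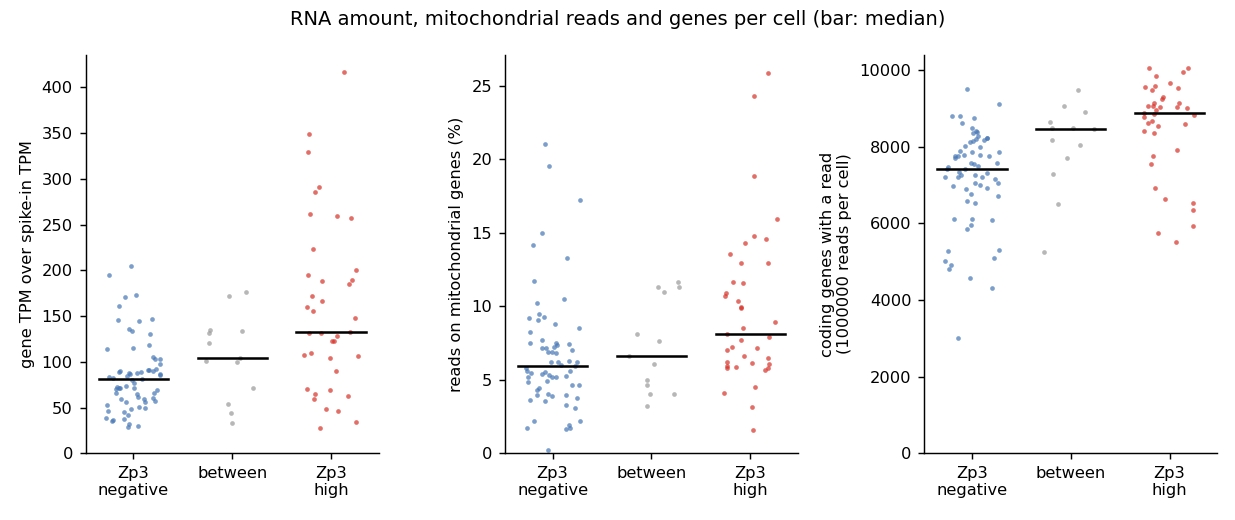
Each point is 1 cell and the bar is the median of its group. The left panel shows gene TPM over spike-in TPM, the middle panel the percentage of reads on mitochondrial genes and the right panel the number of coding genes with a read after thinning to 1000000 reads, for Zp3-negative cells, the 13 cells with 1 to 50 TPM of Zp3 and Zp3-high cells. The medians of Zp3-high cells are higher in all panels, with wide overlap.

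The labels name no animal, so all cells are 1 sample, cells are not replicates and no test was made. A gene's ratio is the log2 of its mean TPM + 1 in Zp3-high cells over that in Zp3-negative cells, so a value of 1 is 2-fold higher in Zp3-high cells, and low genes are understated by the added 1 TPM. Single values in brackets after a gene are this log2 ratio, and a gene was counted as on in a cell at 10 TPM or more. Of 12247 coding genes whose mean reached 1 TPM in either group, 1418 (11.6%) were at least 2-fold higher and 1895 (15.5%) at least 2-fold lower in Zp3-high cells, and the median ratio was -0.19. These 2 percentages are the background for the counts in TPM below. With each cell scaled to its own spike-in level (per spike-in), 3663 of the same genes (29.9%) were at least 2-fold higher and 711 (5.81%) lower, which is the background for counts per spike-in, and the median of all genes moved by 0.74 to 0.56. TPM gives the composition of a cell's RNA, and a gene that is lower in TPM may still have as many molecules in a cell with more RNA.

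Of the zona genes other than Zp3 and the other egg surface genes, 5 of 8 were at least 2-fold higher in Zp3-high cells. The other 3 were Cd9 and Izumo1r, which differed by less, and Oosp3. The filter on low genes was passed by 7 of the 8, and none was at least 2-fold lower, with a median of 2.52. A gene that is near 0 in one group passes the filter only through the other group and then has to differ, so the counts of this and the other lists support nothing beyond the values. Zp1 (chr19:10914287-10920632, mm10), which crosslinks the filaments of the zona, was listed at 0 in 56 of 67 Zp3-negative cells and ran up to 55.9 TPM there. In Zp3-high cells it ran from 0 to 332 TPM with a median of 64.2, and 20 of the 39 lay above every Zp3-negative cell. The mean of Zp1 was 73.2 against 3.13 TPM, a log2 ratio of 4.17. Zp2, the zona glycoprotein that is cleaved after fertilization, was less sharply divided. It ran from 0 to 911 TPM with a median of 252 in Zp3-high cells, and from 0 to 311 with a median of 2.15 in Zp3-negative cells. Its means were 316 and 44.8 TPM (ratio 2.79), and 33 of 67 Zp3-negative cells had 10 TPM or more of it. Per spike-in, all 7 genes were at least 2-fold higher, Cd9 and Izumo1r included.

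The rarer genes of this list appeared in few oocytes. Astl encodes ovastacin, the protease that cleaves ZP2, and had 10 TPM or more in 9 Zp3-high cells, at up to 98.7 TPM, and at most 0.0447 TPM in any Zp3-negative cell. Oosp1 and Oosp2, secreted oocyte proteins, reached 10 TPM in 3 and 5 Zp3-high cells and in no Zp3-negative cell, and 0 of 67 cells allows a share of up to 4.48% (3 counts of the total). Oosp3 did not pass the filter. Of the gamete fusion genes, Cd9 had means of 317 and 189 TPM (0.74) and Izumo1r, the egg receptor Juno, 30.4 and 24.7 TPM (0.29), both under 2-fold by their means and with wide overlap between the groups. Izumo1r was listed at 0 in 10 of 39 and 46 of 67 cells, and its ratio was 1.35 from mean log2 values and 4.15 from medians.

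All 7 genes of the subcortical maternal complex and its partners that passed had a higher mean in Zp3-high cells, 6 of them by at least 2-fold, and the median was 2.10. Padi6, a peptidylarginine deiminase of the egg's cytoplasmic lattices, was on in nearly every Zp3-high oocyte and in few cells without Zp3. The gene lies at chr4:140727355-140742643 (mm10). It ran from 0 to 2679.7 TPM in Zp3-high cells with a median of 644, and from 0 to 1199 in Zp3-negative cells, where 32 of 67 were at 0 and the median was 0.0473. The mean was 798 against 38.05 TPM, a ratio of 4.36 (5.22 without the Zp3-negative cell with the most Padi6), and in 93.99% of pairs of 1 cell from each group the Zp3-high cell had more. Only 9 Zp3-high cells lay above the highest Zp3-negative cell, and 6 Zp3-negative cells had 10 TPM or more of Padi6. Khdc3, a KH-domain protein of the complex, was nearly absent from Zp3-negative cells (mean 2.81 TPM, 54 of 67 at 0). In Zp3-high cells it ran from 0 to 585 TPM with a mean of 84.5 (ratio 4.49), and 14 of the 39 were at 0.

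Of the other members, most were also on in Zp3-negative cells, while Nlrp5 was on in a minority of both groups and Nlrp2 in almost none. Nlrp4f, which binds the complex, had a median of 51.6 TPM (0 to 882) in Zp3-negative cells and of 656 (116.5 to 1927) in Zp3-high cells, where all 39 lay above the Zp3-negative median. The ratio of its means was 2.33. Ooep had means of 148 and 33.8 TPM (2.10), Zbed3 of 363 and 132.6 (1.45), and Tle6, a transducin-like scaffold, of 655 and 237 (1.46). These genes were on in most cells of both groups. Nlrp5, also called Mater, was at 10 TPM in 10 of 39 Zp3-high and 14 of 67 Zp3-negative cells, and its means of 60.01 and 46.3 TPM differed by 0.37 on the log2 scale. Nlrp2 was listed at 0 in all Zp3-high cells and did not pass the filter. In the 12 Zp3-high and 34 Zp3-negative cells with a gene to spike-in ratio of 70 to 140, all 7 genes were at least 2-fold higher, against 11.5% of all genes, with a median of 2.53.

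Nlrp14, an oocyte NLR protein outside the complex, was at 0 in 43 Zp3-negative cells and reached 77.8 TPM in the highest. It ran from 0 to 307 TPM in Zp3-high cells with a median of 59.6, and 16 of these lay above every Zp3-negative cell (means 83.9 and 3.86, ratio 4.13). It is thus close to Padi6 in ratio but on at 10 TPM in fewer oocytes, 27 against 36. Nlrp4c differed by 0.48, and by 0.023 to 1.86 with any 1 cell left out, so that 1 cell decides it, and Nlrp4b by 2.003, or 0.78 to 2.63 with any 1 cell left out. Nlrp4a, Nlrp4e, Nlrp9a, Nlrp9b and Nlrp9c were below 1 TPM in both means.

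The oligoadenylate synthetase (Oas) family senses double-stranded RNA in most tissues, and mouse ovaries are known to express several of its Oas1 copies. Of 10 listed genes, Oas1c, Oas1d, Oas1e and Oas1h passed, and all 4 were at least 2-fold higher, with a median of 4.49. Oas1d, described as a dominant negative copy, ran from 0 to 228 TPM with a median of 22.4 in Zp3-high cells and did not exceed 0.494 TPM in any Zp3-negative cell. Its means were 40.02 and 0.0220 TPM (ratio 5.33), and 23 of 39 Zp3-high cells lay above every Zp3-negative cell. Oas1h had means of 96.998 and 3.92 TPM (4.31), Oas1c of 31.6 and 0.289 (4.66) and Oas1e of 48.3 and 6.01 (2.81). At least 1 of the 4 was at 10 TPM or more in 31 of 39 Zp3-high cells and in 9 of 67 Zp3-negative cells, and 16 Zp3-high cells had all 4. The Oas1 genes lie in 1 cluster on chromosome 5 and are similar in sequence, so reads may be split between copies, and the division among them is uncertain. Oas1a, Oas1b, Oas1f, Oas1g, Oas2 and Oas3 had means below 1 TPM in both groups, and Oas2 was listed at 0 throughout.

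Since FIGLA is known to act on E-boxes of zona promoters, the promoter windows of the leading genes are shown. Each runs from 250 bases before to 50 after the start of the gene in RefSeq (GRCm38.p6) and is read on the strand of the gene, with every E-box (CANNTG, the same on both strands) in capitals. Of 52 genes looked for, 38 had a window. Zp3 (chr5:135979855-135980154, plus strand) stands for the gene that chose the cells, Padi6 (chr4:140742594-140742893, minus strand), Khdc3 (chr9:73102148-73102447, plus) and Ooep (chr9:78378539-78378838, minus) for the maternal complex, Oas1h (chr5:120861172-120861471, plus) for the Oas family, Ldhb (chr6:142507908-142508207, minus) for a gene that is also on in many Zp3-negative cells and Tex101 (chr7:24672001-24672300, minus) for one that is lower in Zp3-high cells.
Zp3: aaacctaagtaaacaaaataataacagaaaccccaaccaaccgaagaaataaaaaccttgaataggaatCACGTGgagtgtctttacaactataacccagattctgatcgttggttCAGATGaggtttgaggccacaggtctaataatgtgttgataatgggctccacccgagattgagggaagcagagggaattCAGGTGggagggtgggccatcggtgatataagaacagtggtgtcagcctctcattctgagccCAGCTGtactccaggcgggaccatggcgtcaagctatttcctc
Padi6: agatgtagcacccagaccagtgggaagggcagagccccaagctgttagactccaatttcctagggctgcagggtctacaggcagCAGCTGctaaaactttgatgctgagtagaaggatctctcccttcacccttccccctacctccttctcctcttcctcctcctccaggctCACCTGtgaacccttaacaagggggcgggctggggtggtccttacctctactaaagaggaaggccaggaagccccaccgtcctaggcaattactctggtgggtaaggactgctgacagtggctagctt
Khdc3: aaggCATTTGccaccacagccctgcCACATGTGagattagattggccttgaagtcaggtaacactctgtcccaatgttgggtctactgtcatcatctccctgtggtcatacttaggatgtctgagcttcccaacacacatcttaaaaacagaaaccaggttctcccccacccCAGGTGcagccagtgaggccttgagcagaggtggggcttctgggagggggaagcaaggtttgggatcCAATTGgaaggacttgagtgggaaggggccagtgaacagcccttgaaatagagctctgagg
Ooep: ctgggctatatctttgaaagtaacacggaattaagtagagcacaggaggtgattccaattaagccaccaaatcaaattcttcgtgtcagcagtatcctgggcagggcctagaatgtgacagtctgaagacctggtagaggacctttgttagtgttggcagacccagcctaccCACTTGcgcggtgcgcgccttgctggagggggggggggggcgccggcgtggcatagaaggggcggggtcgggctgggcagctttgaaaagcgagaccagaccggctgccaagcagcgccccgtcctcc
Oas1h: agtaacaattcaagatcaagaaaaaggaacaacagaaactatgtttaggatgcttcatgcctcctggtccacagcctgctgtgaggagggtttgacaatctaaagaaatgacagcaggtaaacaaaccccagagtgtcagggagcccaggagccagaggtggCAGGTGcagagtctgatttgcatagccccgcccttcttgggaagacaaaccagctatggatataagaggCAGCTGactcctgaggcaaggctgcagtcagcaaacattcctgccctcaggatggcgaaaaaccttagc
Ldhb: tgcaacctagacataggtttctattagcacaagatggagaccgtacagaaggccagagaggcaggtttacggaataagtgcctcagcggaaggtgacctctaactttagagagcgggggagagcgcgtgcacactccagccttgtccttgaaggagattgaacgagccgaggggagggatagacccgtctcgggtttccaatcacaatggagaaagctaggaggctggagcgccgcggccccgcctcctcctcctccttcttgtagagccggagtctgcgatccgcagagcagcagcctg
Tex101: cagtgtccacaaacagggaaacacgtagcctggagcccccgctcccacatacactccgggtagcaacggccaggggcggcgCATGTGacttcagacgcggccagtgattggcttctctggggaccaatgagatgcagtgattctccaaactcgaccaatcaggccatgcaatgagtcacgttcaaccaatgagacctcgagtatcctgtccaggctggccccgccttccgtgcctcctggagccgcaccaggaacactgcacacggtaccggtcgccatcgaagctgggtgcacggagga

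The Zp3 window holds 4 E-boxes, that of Khdc3 5, those of Padi6 and Oas1h 2 each, and those of Ooep and Tex101 1 each. No CANNTG was found in the Ldhb window. Counted from the start of the gene, an E-box begins at -78 in the windows of Padi6, Khdc3 and Ooep alike. No window of Tle6, Zbed3, Nlrp4f, Nlrp5 or Nlrp2 has one there. The share of all windows with an E-box at this position was not counted. The motif is common. Of all 32851 windows of this length 72.3% hold at least 1. So do 11 of 12 windows of the maternal complex genes, 5 of 6 of the egg surface genes and 2 of 6 of the Oas genes. The 6 egg surface windows belong to Astl, Cd9, Izumo1r, Oosp1 and Oosp2, as Zp1 and Zp2 had no window. The homeobox core TAATTG, searched on both strands, was found once in the windows of Padi6 and Ooep, apart from the E-boxes, and in 7.9998% of all windows. TAATTA (5.29% of all windows) and the TATA-box letters TATAAA (13.6%, both strands) were in none of the 7 windows shown. A match is only a match of letters, and the data hold no measure of binding.

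**Figure D2:**
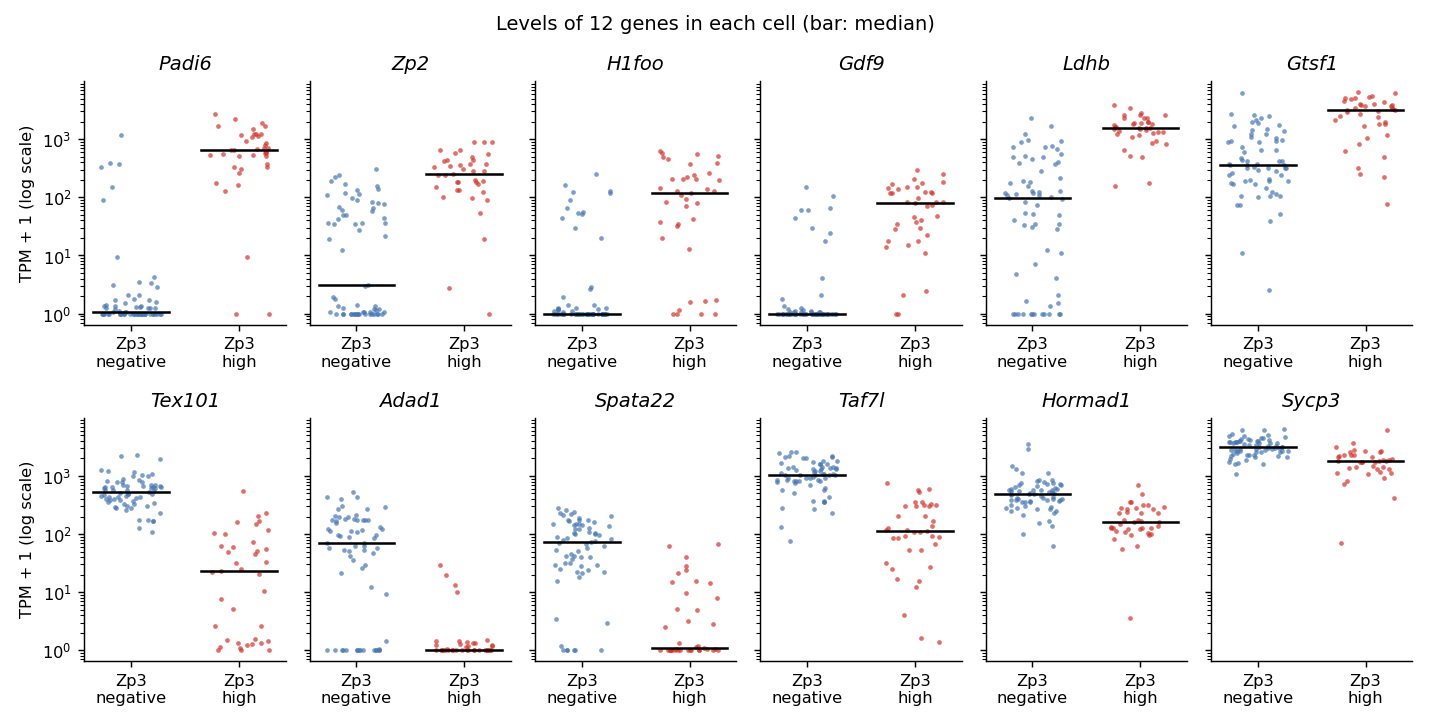
Each point is 1 cell, the bar is the median and the axis is TPM + 1 on a log scale, for 12 genes in 67 Zp3-negative and 39 Zp3-high cells. Padi6, H1foo and Gdf9 are at 0 in many Zp3-negative cells, Zp2 and Ldhb are on in part of them, and in the lower row Adad1 and Spata22 are near 0 in most Zp3-high cells while Sycp3 and Hormad1 are lower but present.

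Genes were also ranked without regard to any list, among those with a mean of at least 10 TPM and at least 10 TPM in 75% of the cells of the higher group. The 12 with the highest ratio were Dpf3, Padi6, Cox4i2, Noto, Tsga10ip, Prr13, Gdf9, H1foo, Akap12, Lurap1l, Hddc3 and Zp2, from 4.59 down to 2.79. Dpf3, a histone reader of the BAF chromatin remodelling complex, had a median of 186 TPM (0 to 1309) in Zp3-high cells, and 22 of them lay above the highest Zp3-negative cell at 157 TPM. Its transcript length in the files had a median of only 149 bases. From CPM, which scales reads to a fixed total and ignores length, the ratio was 4.28 against 4.59. Cox4i2 is an alternative subunit of cytochrome c oxidase, and its ratio was 3.75 (means 97.3 and 6.32 TPM). Its widely used counterpart Cox4i1 stood at means of 1691 and 1695 TPM (-0.0036). Noto, a homeobox factor of the embryonic node, had means of 61.7 and 4.17 TPM and was at 0 in 46 of 67 Zp3-negative and 2 of 39 Zp3-high cells.

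Akap12, an anchor protein for protein kinase A, ordered the groups most clearly of these 12. It ran from 0 to 192 TPM with a median of 91.5 in Zp3-high and from 0 to 81.3 with a median of 0.953 in Zp3-negative cells, and the Zp3-high cell was the higher in 96.04% of pairs. Its ratio was 3.10. H1foo, the oocyte linker histone that RefSeq now lists as H1f8, had means of 174 and 17.8 TPM (3.21), and Gdf9, the growth factor that acts on granulosa cells, 86.99 and 8.24 (3.25). Tsga10ip (3.56), Prr13 (3.41), Lurap1l (2.97) and Hddc3 (2.92) had means of 82.4, 62.1, 23.1 and 52.9 TPM in Zp3-high cells and at most 6.11 in Zp3-negative cells. All 12 stayed at least 2-fold higher under each alternative processing and with any 1 cell left out.

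Genes of RNA storage and decay were mixed, with 4 of 17 higher, none lower and a median of 0.17. Ybx2, the germ cell Y-box protein that packages messenger RNA, was at 10 TPM or more in every cell of both groups. Its median was 1346 TPM (476 to 3227) in Zp3-high and 449 (46.4 to 2012) in Zp3-negative cells, a ratio of means of 1.403. Btg4, an adaptor that brings the deadenylase to maternal RNA, had means of 115.9 and 10.2 TPM (3.39), and Zar1 of 8.21 and 0.469 (2.65). The translational regulators Cpeb1 (-0.12), Dazl (-0.85) and Igf2bp3 (-0.97) were at 10 TPM in at least 35 of 39 and 61 of 67 cells and lower in TPM by less than 2-fold. With spike-in scaling Cpeb1 (0.72, or 0.15 from CPM) was higher, Dazl (0.013) stood level and Igf2bp3 (-0.14) stayed lower. The fourth higher gene, Zar1l, was at 1.39, or 0.88 without 1 cell. Per spike-in, 9 of the 17 were at least 2-fold higher and none lower.

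Of 16 maternal chromatin genes that passed, 5 were at least 2-fold higher and 2 lower (median 0.29). Npm2, the oocyte nucleoplasmin, had the largest ratio of the list at 5.08. It was at 10 TPM in 3 of 67 Zp3-negative cells and ran from 0 to 1094 TPM with a median of 37.8 in Zp3-high cells, 15 of which lay above every Zp3-negative cell. Dppa3, also called Stella, which protects maternal DNA methylation, was present in both groups with medians of 1486 and 284 TPM (ratio 1.78). Zfp57, an imprint-binding zinc finger protein, had means of 307 and 97.7 TPM (1.64). Of the de novo methyltransferases, Dnmt3a was lower in TPM at 13.4 and 33.4 TPM (-1.25) and Dnmt3b higher at 32.6 and 13.3 (1.23, or 0.97 without 1 cell). Dnmt3l was listed at 0 in every cell of both groups. H2afx, the histone phosphorylated at DNA breaks, was lower in TPM (88.8 and 212 TPM, -1.25). Per spike-in, 7 of the 16 were at least 2-fold higher and none lower, with a median of 0.96, and Dnmt3a (-0.28) and H2afx (-0.30) were lower by less than 2-fold.

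Among ligands, receptors and signalling genes of oocyte growth, 5 of 13 were at least 2-fold higher and 1 lower (median 0.62). Gdf9 led them, while its partner ligand Bmp15 reached 10 TPM in 1 of 39 Zp3-high cells and had a mean of 2.22 against 0.223 TPM. Cdkn1b, the cell cycle inhibitor p27, had means of 16.2 and 1.79 TPM (2.62) and was at 10 TPM in 23 of 39 Zp3-high and 2 of 67 Zp3-negative cells. Gja4, the gap junction protein connexin 37, was at means of 70.9 and 35.1 TPM (0.99), just under 2-fold. Its ratio was 2.66 from mean log2 values, 3.92 from medians and 1.77 per spike-in. The ratio of Gpr3, the receptor that keeps meiosis arrested, was 1.403, at means of 10.4 and 3.32 TPM. Kit, the receptor for the granulosa ligand, was on in nearly all cells at means of 194 and 160.5 TPM (0.27). For some genes of this list 1 cell decided the ratio. With any 1 cell left out, Bmp15 (1.395) ran from 0.90 to 1.67, Pde3a, which degrades cyclic AMP (1.05), from 0.84 to 1.75 and Adcy3, which makes it (-2.32), from -3.20 to -0.81. Per spike-in, 7 of the 13 were at least 2-fold higher and 1 lower.

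The follicle factors went in both directions, with 4 of 14 higher, 1 lower and a median of -0.0073. Lhx8 had a median of 333 TPM (60.2 to 941) in Zp3-high and 685 (108.4 to 1592) in Zp3-negative cells, a ratio of means of -0.93, which is just under 2-fold. Nobox (-0.44), Sohlh1 (-0.24), Sohlh2 (-0.76), Taf4b (-0.93) and Foxo3 (-0.55) were also lower by less than 2-fold. Per spike-in the direction of Nobox (0.51), Sohlh1 (0.60), Sohlh2 (0.14) and Foxo3 (0.41) was the opposite, while Lhx8 (-0.12) and Taf4b (-0.22) stayed lower. The E protein partners of FIGLA differed by less than 2-fold in mean TPM, with Tcf3 at 0.39, Tcf12 at 0.23 and Tcf4 at 0.45. Tcf3 and Tcf4 were at least 2-fold higher per spike-in (1.21 and 1.37) and from mean log2 values (1.10 and 1.03), while Tcf12 was not (0.71 and 0.27). The 4 higher factors were absent from most Zp3-negative cells. Tbpl2, an oocyte TATA-binding protein, had means of 31.7 and 3.24 TPM (2.95), and Pou5f1 (Oct4) and Sall4 38.3 against 4.24 and 22.5 against 2.35 (2.91 and 2.81). Jag1, a Notch ligand that oocytes present to granulosa cells, was at 33.6 and 4.70 TPM (2.601). Taf7l, a germ cell TFIID subunit, was the exception in the other direction, with medians of 112.4 and 1039.8 TPM, a ratio of -2.63, and 52 of 67 Zp3-negative cells above every Zp3-high cell.

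**Figure D3:**
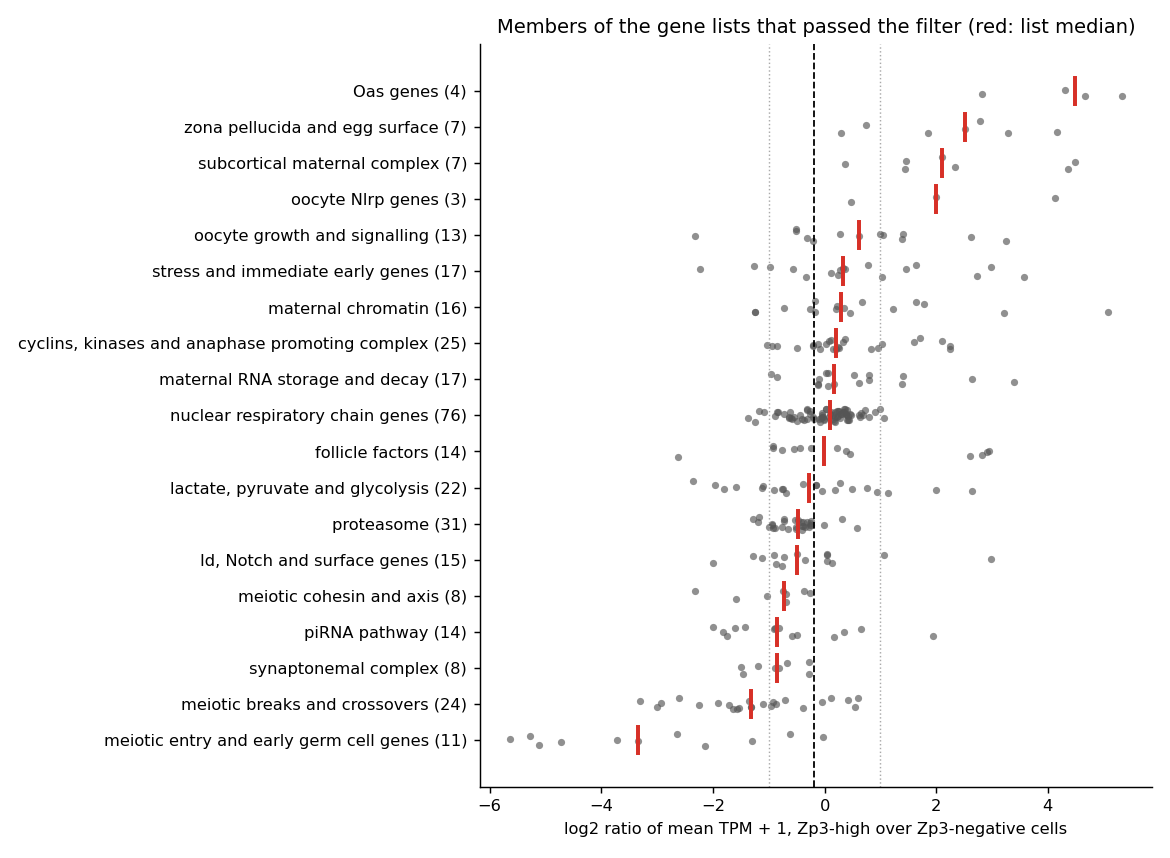
Each point is a gene of a list that passed the filter, placed at its log2 ratio of mean TPM + 1 in Zp3-high over Zp3-negative cells, with the list median in red and the number of genes in brackets. The dashed line is the median of all 12247 coding genes (-0.19) and the dotted lines mark 2-fold. Oas, zona and subcortical maternal complex genes lie to the right, with medians of 4.49, 2.52 and 2.10. The list of meiotic entry and early germ cell genes lies to the left at -3.35.

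Meiotic prophase genes were lower in TPM in Zp3-high cells, and by different amounts for different lists. The list of meiotic entry and early germ cell genes, called the early meiotic list below, had the lowest median, -3.35. Of its genes 9 of 11 were at least 2-fold lower and none higher. Its members are not limited to meiotic entry, so its name gives no order of steps. In this list Spdya and Mtl5 had means below 1 TPM in Zp3-high cells and passed the filter only through the Zp3-negative cells, so they had to differ. Of the 61 members of all lists that were at least 2-fold lower in TPM, 26 were so per spike-in and none was higher there. Spdya, the activator of CDK2 at telomeres, had means of 0.723 and 84.4 TPM (-5.63). Adad1, an RNA-binding protein of germ cells, ran from 0 to 535 TPM in Zp3-negative cells with a median of 68.5, and was at 10 TPM in 3 of 39 Zp3-high cells, whose median was 0 (ratio -5.27). Dmrtc2 (-5.11), Ccnb3, a meiotic cyclin (-4.72), and Meioc, which stabilizes the meiotic program (-3.71), were also close to absent, at means of 1.73, 1.84 and 1.32 TPM in Zp3-high cells. Tex101, a surface glycoprotein of germ cells, gave the clearest order of the 24 ranked genes. It lies at chr7:24668007-24676675 (mm10) and ran from 106.4 to 2250.5 TPM with a median of 535 in Zp3-negative and from 0 to 540.1 with a median of 22.5 in Zp3-high cells, and in only 2.14% of pairs did the Zp3-high cell have more. Ythdc2 (-0.62) and the topoisomerase gene Top2a (-0.022) differed by less than 2-fold, and Stra8, the trigger of meiotic entry, had means below 1 TPM in both groups.

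Genes of recombination came next, with 14 of 24 at least 2-fold lower, none higher and a median of -1.31, or 7 lower, 2 higher and -0.48 per spike-in. Spata22 and Meiob form a complex on single-stranded DNA and had ratios of -3.31 and -3.003. Spata22 ran from 0 to 280.0 TPM with a median of 70.9 in Zp3-negative cells and from 0 to 67.01 with a median of 0.118 in Zp3-high cells, and 35 of 67 Zp3-negative cells lay above every Zp3-high cell. Spo11, which makes the breaks, had means of 3.50 and 33.5 TPM (-2.94), and Mei1 of 2.12 and 13.8 (-2.25). The crossover genes Hfm1 (-2.61) and Rnf212 (-1.91) were lower, while Msh4 (-0.87) was not by 2-fold and Msh5 was higher in mean (0.60). Dmc1, the meiotic recombinase, was at 3.005 and 12.1 TPM (-1.71). Tex15 stood at means of 292 and 303 TPM (-0.053) and was on in every cell of both groups.

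The structural genes of the chromosome axis and synaptonemal complex were lower by less. All 8 synaptonemal genes and all 8 cohesin and axis genes that passed had a lower mean TPM in Zp3-high cells, 3 of each by at least 2-fold, with medians of -0.85 and -0.72. A lower mean TPM was common among all genes too, whose median was -0.19. Sycp3, of the lateral element, was on in every cell of both groups, with a median of 1775 TPM (70.5 to 6267) in Zp3-high and 3132 (1059.6 to 6371) in Zp3-negative cells (ratio -0.82). Sycp1, of the transverse filament, differed by -0.28. Sycp2 (-1.45), Syce3 (-1.19) and Six6os1 (-1.49) passed 2-fold. Hormad1, an axis protein that is removed as chromosomes synapse, had medians of 161 and 491 TPM (ratio -1.59), and the cohesins Rad21l (-2.32) and Smc1b (-1.03) were lower while Stag3 (-0.37) and the general cohesin Smc3 (-0.27) were within 2-fold. Per spike-in the medians of these 2 lists were -0.059 and -0.04, with no synaptonemal gene and 1 cohesin and axis gene at least 2-fold lower. Sycp1 (0.70), Syce2 (0.74), Tex12 (0.27), Stag3 (0.18), Smc3 (0.51) and Sgol2a (0.10) were then higher. Relative to the median of all genes, the medians of the 2 lists were -0.67 and -0.53 in TPM and -0.61 and -0.60 per spike-in. The early meiotic list kept a median of -2.84 per spike-in, with 8 of 11 genes at least 2-fold lower.

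The 12 lowest ratios of the ranking that used no list belonged to Ly6k, Tex101, Spata22, Tktl1, Taf9b, Tsga8, Taf7l, Hfm1, Arhgdig, Ddx25, Adck3 and Tsc22d3, from -3.56 to -2.31. Adad1 and Dmrtc2 had lower ratios than these but reached 10 TPM in under 75% of the Zp3-negative cells. Ly6k encodes a surface protein that binds TEX101 and had means of 20.7 and 256 TPM (-3.56). Of these 12 genes, Taf7l and Taf9b encode variant subunits of the general transcription factor TFIID. Taf9b had medians of 11.2 and 198 TPM (-2.88), with 37 of 67 Zp3-negative cells above every Zp3-high cell. Tktl1, a transketolase-like gene, had medians of 23.4 and 223 TPM (-2.97), and Ddx25, a germ cell RNA helicase, of 4.98 and 35.4 (-2.42). Tsc22d3, a leucine zipper protein known to respond to glucocorticoids, ran from 13.3 to 935 TPM in Zp3-negative and from 0 to 243 in Zp3-high cells, with medians of 258 and 36.3, and Adck3, a coenzyme Q synthesis gene, had medians of 233 and 20.3. Taf7l, Taf9b, Tktl1, Tsga8 and Tsc22d3 lie on the X chromosome. The share of X-linked genes among all compared genes was not counted, so nothing follows from their number. All 12 stayed at least 2-fold lower under each alternative and with any 1 cell left out.

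The piRNA pathway silences transposons in germ cells, and its genes split in the comparison. Of 14 that passed, 5 were at least 2-fold lower and 1 higher (median -0.85). Mael had medians of 165 TPM (0.0925 to 596) in Zp3-high and 747 (1.002 to 1735) in Zp3-negative cells, a ratio of -1.82, and 46 of 67 Zp3-negative cells lay above every Zp3-high cell. Asz1 (-1.75), Tdrkh (-1.60), Henmt1, which methylates piRNA ends (-1.43), and Piwil4 (-1.99) were lower as well. Gtsf1, a zinc finger partner of PIWI proteins, went the other way, with a median of 3156 TPM (74.8 to 6447) against 359 (1.502 to 6221) and a ratio of 1.94. Its transcript length in the files, like that of Dpf3, was short (median 123.5 bases), and the ratio from CPM was 2.02. Tdrd1 (0.35) and Tdrd5 (0.66) were slightly higher and Piwil2 (-0.49) slightly lower. Per spike-in, 3 of the 14 were at least 2-fold higher, a share below the 29.9% of all genes, and 1 lower, near the 5.81% of all genes, with a median of -0.061.

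Cell cycle genes of the later meiotic divisions were partly higher. Of 25 that passed, 6 were at least 2-fold higher and 1 lower, with a median of 0.21. Ube2c, the ubiquitin-conjugating enzyme of the anaphase promoting complex, had a median of 1405 TPM (51.01 to 3158) in Zp3-high and 191 (0.0989 to 2601) in Zp3-negative cells (ratio 2.24). Pttg1, the securin that the complex degrades, had means of 476 and 145.7 TPM (1.70), and Aurkb of 25.2 and 4.51 (2.25). Mos, the kinase of egg arrest, was at 10 TPM in 23 of 39 and 7 of 67 cells (2.11), and Wee2, an oocyte inhibitor of CDK1, in 22 and 15 (1.61). Other parts of the same machinery differed little, among them Cdk1 (-0.21), Fzr1 (0.26), Ube2s (-0.084) and Birc5 (0.25). Ccnb2 was lower (-1.03) and Ccnb1 higher by just under 2-fold (0.97). Cdc25b, which activates CDK1, was at 1.03, or 0.61 without 1 cell. Per spike-in, 14 of the 25 were at least 2-fold higher and none lower. In the cells with a gene to spike-in ratio of 70 to 140, 4 were higher and 5 lower in TPM, with a median of 0.18. The 5 were Ccnb2 (-1.55), Ccne1 (-2.21), Cdc20 (-1.13), Aurka (-1.25) and Bub1b (-1.05). Lower calls were also more frequent among all genes in those cells, with 1533 higher and 2807 lower against 1418 and 1895 in the full groups.

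Ldhb (chr6:142490249-142507957, mm10), the lactate dehydrogenase subunit that favours conversion of lactate to pyruvate, was the largest difference among genes of lactate, pyruvate and glycolysis, where 3 of 22 were higher and 6 lower (median -0.28). It ran from 154 to 3820.5 TPM with a median of 1549 in Zp3-high cells and from 0 to 2287 with a median of 96.7 in Zp3-negative cells. All 39 Zp3-high cells lay above the Zp3-negative median, the ratio of means was 2.65 and the Zp3-high cell was the higher in 94.8% of pairs. The muscle-type subunit Ldha stood at means of 8.80 and 14.9 TPM (-0.70), below Ldhb in all 39 Zp3-high cells. Those means rest on few cells, since the medians were 0.335 and 0.204 TPM, the ratio ran from -1.20 to -0.066 with any 1 cell left out, and per spike-in it was 0.60. Of the pyruvate dehydrogenase complex, which passes pyruvate into the mitochondrial cycle, Dlat (-1.80) and Dld (-1.97) were lower and Pdhb (-0.74) lower by less than 2-fold, while Pdha1 was higher in mean (0.94, or 1.51 from CPM). Slc2a1, a glucose transporter, was higher at means of 24.8 and 5.47 TPM (1.99), and so was the glycolytic gene Pfkp (1.14), or 0.85 without 1 cell and -0.66 from CPM. The monocarboxylate transporter genes Slc16a1 (-1.58) and Slc16a7 (-2.36) and the glycolytic genes Pkm (-1.12) and Eno1 (-1.11, or -0.98 without 1 cell) were lower, while Gapdh (0.28), Pgk1 (-0.16) and Gpi1 (0.19) were within 2-fold. Per spike-in, 8 of the 22 were at least 2-fold higher and 1 lower, both shares near those of all genes (29.9% and 5.81%), and the list median relative to that of all genes was 0.011.

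The 76 nuclear genes of the respiratory chain lay close together, with 2 higher, 4 lower and a median of 0.10. The higher were Cox8a (1.06) and Ndufb2 (1.001, or 0.91 without 1 cell), and the lower included the succinate dehydrogenase genes Sdha (-1.25) and Sdhd (-1.37). Most proteasome genes were lower in TPM by less than 2-fold. Of 31, 29 had a lower mean, and the median was -0.48, against -0.19 for all genes. A lower mean was thus common among all genes too. At least 2-fold lower were 4 (Psma1, Psma5, Psmd12 and Psmd14, the last of them under 2-fold without 1 cell), a share below the 15.5% of all genes. With spike-in scaling, 2 of the 31 were at least 2-fold higher and none lower. Per spike-in, 41 of the 76 respiratory chain genes were at least 2-fold higher and none lower, with Sdha at -0.41 and Sdhd at -0.50. The respiratory median was then 1.06 and the proteasome median 0.36, against 0.56 for all genes.

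Id1 and Id3 encode inhibitors that bind E proteins and keep them from DNA, and both were lower in TPM. Id1 ran from 1.35 to 3887 TPM with a median of 639.9 in Zp3-high and from 469 to 9977 with a median of 2661 in Zp3-negative cells, with 19 Zp3-negative cells above every Zp3-high cell (ratio -1.999). Id3 had a ratio of -1.13 and Id4, at a mean of 11.7 TPM in Zp3-negative cells, of -1.28. Id2 did not follow them, at means of 735 and 667 TPM (0.14). For Hes1, a target of Notch signalling, 1 cell decided the mean. Its medians were 7.98 and 128.9 TPM, but 1 Zp3-high cell had 5639 and brought the mean to 205 against 199.8. Without that cell the mean was 62.3 TPM and the ratio -1.67, in place of 0.039. The surface genes Sdc1 (-0.77), Cd55 (-0.74) and Tspan13 (-0.50) were lower in TPM by less than 2-fold, and Anxa7 (0.038) stood level. With spike-in scaling Sdc1 (0.16), Tspan13 (0.40) and Anxa7 (0.78) were higher by less than 2-fold and Cd55 (-0.0004) stood level. Per spike-in, Id1 was at -1.17, but Id3 (-0.26) and Id4 (-0.96) were under 2-fold, and the median of the 15 listed Id, Notch and surface genes went from -0.50 to 0.16, with 2 higher and 1 lower.

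Stress and immediate early genes differed in both directions, with 6 of 17 higher and 2 lower (median 0.33). Immediate early genes are known to respond quickly to many stimuli, and Egr1, Fos, Fosb and Junb had ratios of 2.97, 2.73, 1.46 and 3.57. Fos was at 10 TPM in 7 of 39 Zp3-high and 5 of 67 Zp3-negative cells, Junb in 9 and 1 and Egr1 in 21 and 12, so the means of Fos and Junb rest on a minority of cells. Hspa5, the chaperone of the endoplasmic reticulum, was lower in nearly every oocyte, with medians of 83.2 and 432 TPM (ratio -2.24) and 43 of 67 Zp3-negative cells above every Zp3-high cell. Per spike-in, 9 of the 17 were at least 2-fold higher and 2 lower. Trp63, the p53 relative that guards oocyte quality, was at 44.8 and 25.6 TPM (0.79), and Bax at 472 and 595 (-0.33).

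The calls of some genes depended on which cells were kept. In the 12 Zp3-high and 34 Zp3-negative cells with a gene to spike-in ratio of 70 to 140, Wee2 (0.38), Slc2a1 (0.23), Pfkp (0.81), Dnmt3b (0.87) and Pde3a (0.91) were no longer at least 2-fold higher, and Dnmt3a (-0.96), H2afx (-0.83), Id3 (-0.67), Eno1 (-0.73) and Psmd12 (-0.94) no longer at least 2-fold lower. Fos (-0.56), Cdc25b (-0.56) and Pdha1 (-0.60) changed direction. In the same cells Nlrp5 (2.82), Nlrp4c (1.52) and Gja4 (1.19) passed 2-fold upward and Taf4b (-1.11), Dazl (-1.04), Ldha (-1.81), Pdhb (-1.02) and Hes1 (-2.75) downward. Lower calls rose among all genes there, with 1533 higher and 2807 lower against 1418 and 1895 in the full groups. Without the globin-rich cells, Zar1l (0.48), Pfkp (0.44), Ndufb2 (0.78), Cox8a (0.98), Smc1b (-0.95) and Psmd14 (-0.97) came under 2-fold, and Ccnb1 (1.05), Pdha1 (1.04) and Igf2bp3 (-1.17) passed it.

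Single cells with a very high level also carried some ratios. Without its highest Zp3-high cell, Oosp1 was at 1.02 in place of 1.85, Fos at 1.56, Junb at 2.82 and Slc2a1 at 1.32. Without its highest Zp3-negative cell, Tbpl2 was at 3.56 in place of 2.95, Npm2 at 5.67, Aurkb at 2.90, Cox4i2 at 4.37 and Slc16a7 at -1.75. Smc1b (-0.99), Ccnb2 (-0.99) and Psmd14 (-0.95) were under 2-fold without 1 cell.

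Several of these genes have a general counterpart, and TPM is per transcript length, so levels of the 2 genes can be set side by side within a cell. Ybx2 was above the general Ybx1 in all 39 Zp3-high cells and in 28 of 67 Zp3-negative cells. Ccnb1 was above Ccnb3 in all 39 Zp3-high cells and in 28 of 67 Zp3-negative cells. Gdf9 was above Bmp15 in 37 Zp3-high cells, and Bmp15 was above Gdf9 in no cell of either group. The oocyte genes did not outweigh the general ones everywhere. Tbp was above Tbpl2 in 33 of 39 Zp3-high cells, Npm1 above Npm2 in 38 and Pabpc1 above Pabpc1l in all 39, and Eif4e had means of 781 and 969 TPM where Eif4e1b had 3.45 and 3.75 (-0.095, or -0.77 to 0.054 with any 1 cell left out).

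Maternal genes differed in how often they were on in cells without Zp3. On again means 10 TPM or more, and intervals are exact 95% intervals for counting error. Ybx2 was on in all 67 Zp3-negative cells, Gtsf1 and Ube2c in 65 each and Dppa3 in 62. The maternal complex genes followed, with Tle6 on in 83.6% (72.5 to 91.5%), Zbed3 in 79.1% (67.4 to 88.1%), Ooep in 62.7% (50.01 to 74.2%) and Nlrp4f in 55.2% (42.6 to 67.4%). Ldhb was on in 71.6% (59.3 to 81.99%) and Zp2 in 49.3% (36.8 to 61.8%). The remaining genes of the plot were on in few cells without Zp3. H1foo was on in 13 of 67, Dpf3 in 11, Gdf9 and Btg4 in 9, Noto in 7, Padi6 in 6, Khdc3, Nlrp14 and Oas1h in 5, Zp1 in 4, Npm2 in 3 and Oas1d in 0, which allows a share of up to 4.48% (3 counts of the total, where the other limits are exact intervals). Padi6 was thus closer to Zp1 than to Tle6, Zbed3, Ooep and Nlrp4f, at 8.96% (3.36 to 18.5%) in Zp3-negative and 92.3% (79.1 to 98.4%) in Zp3-high cells. At 1 TPM in place of 10, Padi6 was on in 14 Zp3-negative cells, Ooep in 54, Zp2 in 35 and Zp1 in 4.

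**Figure D4:**
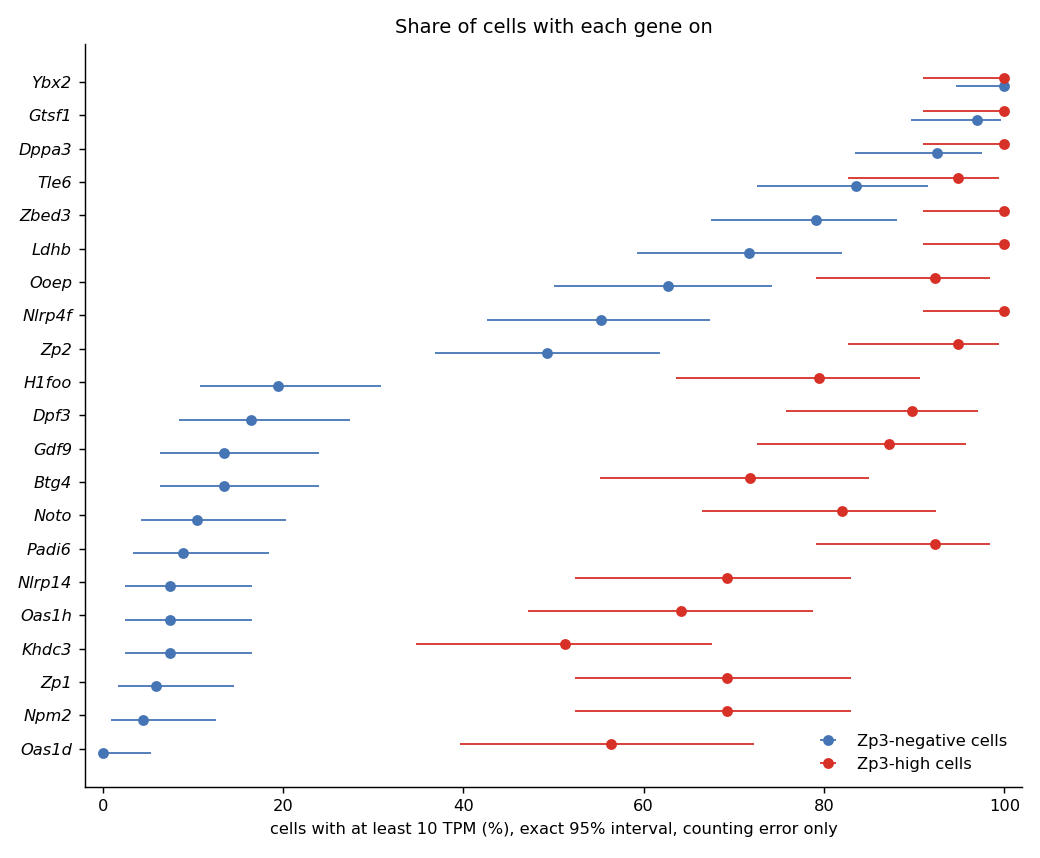
Points give the percentage of cells with at least 10 TPM of each gene among 67 Zp3-negative and 39 Zp3-high cells, and lines the exact 95% interval for counting error. From Ybx2 down to Zp2 the gene is on in 33 or more of the Zp3-negative cells, and from H1foo down to Oas1d in 13 or fewer.

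Within the Zp3-negative cells, some pairs of these genes were mostly on in the same cells and others were not. Zp2 and Ldhb were both on in 31 cells, Ldhb alone in 17, Zp2 alone in 2 and neither in 17. All 6 cells with Padi6 on also had Ldhb on, but so had 42 of the cells without Padi6, and 5 of the 6 had Zp2. Zp1 and Zp2 were both on in 3 cells, Zp2 alone in 30 and Zp1 alone in 1. Tex101 was on in all 67 cells whatever the state of Ldhb. Across the 67 cells, Spearman's rho was 0.710 between Nlrp4f and Ldhb and 0.613 between Zp2 and Ldhb, but 0.290 between Padi6 and Ldhb and 0.162 between Zp2 and Zp1, as a description of cells that share 1 litter and differ in depth.

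A count was made in each cell of how many maternal genes were on, out of the 31 of the 7 maternal lists that were at least 2-fold higher. Because the 31 were chosen by the comparison itself, the distance between the groups is fixed by that choice, and only the spread within a group is described. Zp3-negative cells had 2 to 15 of them on (median 8), the 13 cells with 1 to 50 TPM of Zp3 had 5 to 16 (median 11) and Zp3-high cells 7 to 28 (median 20). None of the Zp3-negative cells had all 31 off, and 41 of the 67 had at least as many on as the lowest Zp3-high cell. Among Zp3-negative cells the count was lower where genes of the early meiotic list were higher, with a rho of -0.526 against their mean log2(TPM + 1). The same count had a rho of 0.313 with the gene to spike-in ratio, 0.124 with reads per cell and -0.0157 with the share of mitochondrial reads. Among Zp3-high cells the count was higher with more RNA (rho 0.593) and reads (0.528), and its rho with the early meiotic score was 0.208. These are correlations across cells of 1 sample, with TPM of both measures taken from the same libraries.

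**Figure D5:**
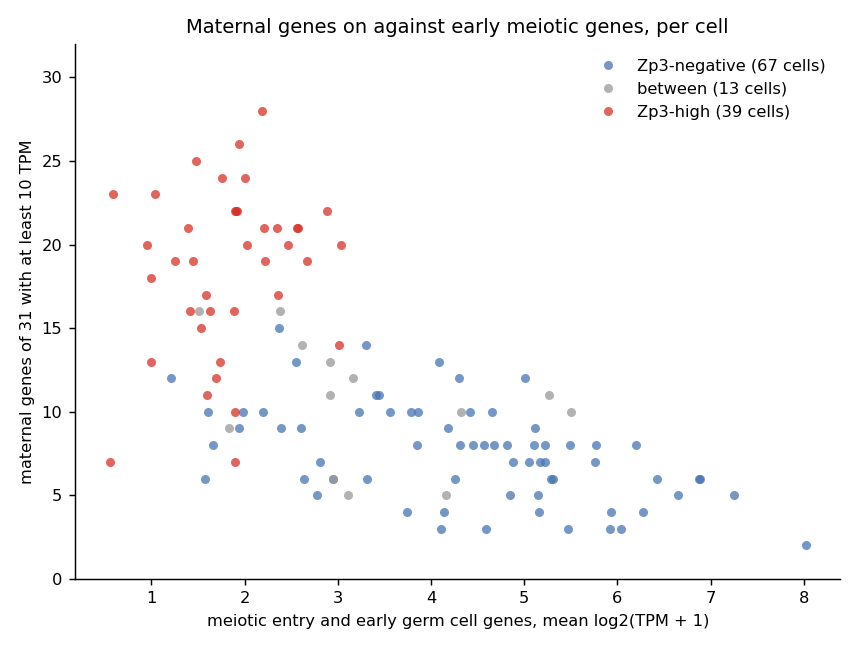
Each point is 1 cell. The horizontal axis is the mean log2(TPM + 1) of the 11 genes of the early meiotic list that passed. The vertical axis is the number of 31 maternal genes with at least 10 TPM. Zp3-negative cells spread from the lower right to the middle left, and the 13 cells with 1 to 50 TPM of Zp3 lie partly among them, with a median number (11) between those of the 2 groups (8 and 20).

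In maternal complex and meiotic genes, the medians of the 13 cells with 1 to 50 TPM of Zp3 lay between those of the groups. The median score of the maternal complex list, as mean log2(TPM + 1), was 3.08 in Zp3-negative cells, 4.40 in the cells between and 6.94 in Zp3-high cells. The early meiotic list went from 4.45 to 2.95 and 1.89, and the synaptonemal list from 8.12 to 7.97 and 7.19. For the 4 Oas genes these cells were near the Zp3-negative side (0.0191, 0.146 and 3.94). The piRNA list gave 6.20, 6.34 and 5.72. Single genes stood at different points between the groups. Ldhb was on in 12 of the 13 cells, Nlrp4f in 11 and Zp2 in 10, while Padi6, Gdf9 and Zp1 were each on in 3, Nlrp14 in 1 and Npm2 and Khdc3 in none. Tex101 was on in 12.

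A few cells stood apart from their group. Padi6 was listed at 0 in 2 Zp3-high cells, which had 52.01 and 88.2 TPM of Zp3. The latter also had no Zp2, 540.1 TPM of Tex101 and 684 of Hormad1, levels usual for Zp3-negative cells, and the highest Figla of its group (4453 TPM). On the other side, the Zp3-negative cell with the most maternal genes on (15 of 31) had 388 TPM of Padi6, 186 of Zp2 and 389 of Ldhb with 0.379 TPM of Zp3. Another had 1199 TPM of Padi6, the highest outside the Zp3-high cells, and no Zp3. These cells were not left out.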

How the data were processed

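Single germ cells from P0.5 mouse ovaries were lysed with ERCC spike-ins, amplified by Smart-seq2 and sequenced. Per the submitters' processing notes, FastQC, Salmon and the mm10 build were used. For every gene symbol of each cell the authors deposited a TPM value and an estimated count of reads. The annotation release is not given in the sources used here. The deposited TPM were used without a new scaling, and the deposited estimated counts, rounded to whole reads, were used for depth, for thinning and for CPM.

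Of 52605 gene symbols besides the 92 spike-ins, 28006 matched GENCODE M21, 35 a RefSeq symbol and 269 a RefSeq synonym, and 19767 were coding. Spike-ins stayed out of reads and genes. Libraries whose log2(TPM + 1) correlated at 0.9 or more over genes with a mean of 1 TPM were taken as repeats of 1 cell, with their TPM averaged and their reads summed. Cells were grouped by the limits given above. The members and gene lists were chosen with earlier results of these data known, so no list was tested. The labels name no animal, and all cells are 1 sample. Ratios, medians, ranges, binomial intervals after Clopper and Pearson and rank correlations (Spearman, given with no p) were made with Python 3.11.15, NumPy 2.4.6, pandas 2.3.3 and SciPy 1.17.1, and plots were made with matplotlib 3.10.9. The pseudocount was 1 TPM, the filter on low genes a mean of 1 TPM in either group, and a gene was on at 10 TPM. Coding genes without Zp3, Figla, Ddx4 and mitochondrial genes were compared. Genes named outside the 24 lists and 13 pairs were the 12 highest and 12 lowest ratios among genes with a mean of at least 10 TPM and 10 TPM in 75% of the cells of the higher group. Nlrp4g, Shoc1, Majin, Terb1 and Terb2 had no row under their symbols and were not analysed here. A few members of the lists are counted but not reported by name here. Cells were picked by hand and no doublet caller was run. The calculation of the ratio was tested on simulated data, and no result given here rests on that. Alternatives were another unit or scaling (mean log2 values, CPM, thinned reads, spike-ins, nuclear coding genes, medians), a pseudocount of 0.1 TPM, no filter, other limits of Zp3, Figla and Ddx4, each cell left out, and cells of at most 10% mitochondrial reads. Leaving out globin-rich cells, keeping cells of like RNA amount, merging repeat libraries and counting each library separately were chosen after seeing the data.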

Additional observations from a re-analysis of the deposited data

How the results depend on the processing

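Each of the 24 genes named by the ranking kept its direction and at least a 2-fold size in all 456 values computed under the alternatives, and 404 of 456 list medians kept their sign and their side of 2-fold. Another 18 changed sign while under 2-fold, 8 of them of the follicle factors, 2 became 0 and 32 moved to another side of 2-fold. Per spike-in, 5 medians went from below to above 0 (follicle factors, glycolysis, Id and Notch, germ markers and proteasome). With a difference of mean log2(TPM + 1) in place of a ratio of means, 1626 genes were at least 2-fold higher and 800 lower, against 1418 and 1895, and with median TPM 1081 lower and 2141 higher. Per spike-in, with the filter also in that unit, 3875 genes were higher and 736 lower. With 1 cell left out at a time, 1375 to 1450 genes were higher and 1845 to 1966 lower. With each library counted separately, 74 libraries were Zp3-negative and 1426 genes were higher and 1958 lower. In the cells with a gene to spike-in ratio of 70 to 140, with the filter also in those cells, 1533 genes were higher and 2807 lower. The synaptonemal median was -1.01 with mean log2 values, the piRNA median -1.02 from CPM and -1.03 from thinned reads, the median of breaks and crossovers -0.48 per spike-in, and that of cohesin and axis genes -1.04 with median TPM and -1.01 without the Figla limit. The stroma median was 0 with median TPM. The blood median was 0 with median TPM, -0.50 without the Figla limit, -0.90 without globin-rich cells and -2.05 at a gene to spike-in ratio of 70 to 140. The causes were not tested. At most 10% mitochondrial reads left 24 Zp3-high cells, and a gene to spike-in ratio of 70 to 140 left 12 Zp3-high and 34 Zp3-negative cells. No paired analysis was possible because the labels pair no cells across groups. With no replicate animals, differences between these groups of cells cannot be told apart from differences between the pups they came from. Counts of cells with a gene at 0 are limited by the reads per cell.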

Other observations

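Globin and a few marker genes of other cells differed between the groups without belonging to any comparison above. Hemoglobin transcripts, which red blood cells make, had a mean sum of 4055 TPM in Zp3-high and 1529.9 in Zp3-negative cells, but medians of 30.2 and 62.1, so the direction depends on a few cells. Irx3, listed as a pregranulosa marker, was at means of 1.14 and 0.00144 TPM (1.09, or 0.79 without 1 cell and 0.096 without globin-rich cells). The collagen genes Col1a1 and Col3a1, which stroma cells express, were at -1.82 and -2.59, and without 1 cell at -0.085 and 0.36.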
